A study of Mus musculus with 9 samples.

Results

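The genes described here store, carry, take up, export and sense iron in the mouse brain. They are 10 genes chosen by name: the ferritin subunits Fth1 and Ftl1, the plasma carrier transferrin (Trf), the uptake genes Tfrc, Slc11a2 and Steap3, the exporter Slc40a1, the ferroxidases Cp and Heph, and the cytosolic iron sensor Aco1. Each was found by its symbol among the 49315 gene identifiers of the count table, and all 10 were among the 18492 genes that passed a filter on low counts and were tested. The question was how their transcripts differed between old and young brain.

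RNA was extracted from whole brains of male wild-type C57BL/6J mice, an inbred strain, with no treatment named in the labels. The young group held 5 mice, labelled as 3 months old (the methods of the study give 3 or 4), and the old group held 4 mice of 33 months, named by their replicate numbers 1, 3, 4 and 5. Each library is 1 mouse. PolyA-selected libraries held between 14229259 and 21150439 counts on genes. Levels are given as CPM, counts scaled to the total on genes of each library after correction for library composition. A gene is said to have risen or fallen where edgeR's quasi-likelihood test gave an adjusted p under 0.05.

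Markers of the main brain cell types were detected, and no marker on the lists was at 0 in all libraries. Young replicate 4 stood apart from the other young mice in glial markers. Its 8 reactive astrocyte markers summed to 728 CPM, against 289 to 340 in the other young libraries and 902 to 1185 in the old ones. Its 10 activated microglia markers summed to 190 CPM, against 105 to 121 in the other young libraries and 165 to 216 in the old ones. Results that depended on this mouse are given with and without it. In whole tissue, fewer cells of a type and less RNA per cell cannot be told apart.

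Iron in plasma travels bound to transferrin and enters cells when transferrin binds its receptor (Tfrc) and is taken into endosomes. There a reductase such as Steap3 converts it to ferrous iron, and Slc11a2 (DMT1) moves it to the cytosol. Iron that is not used is kept inside ferritin, a hollow shell of heavy (Fth1) and light (Ftl1) chains, or leaves the cell through ferroportin (Slc40a1), after which a copper ferroxidase, Cp or Heph, oxidises it so that transferrin can bind it again. In brain, oligodendrocytes and microglia are known to be rich in ferritin, transferrin is made by oligodendrocytes and choroid plexus, and Cp is anchored on astrocytes. Aco1, also called IRP1, binds a hairpin in messenger RNAs, the iron-responsive element (IRE), when iron is scarce. Binding near the start of a messenger blocks its translation, and binding in the 3′ UTR protects it from decay.

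The IRE ties several of these genes to each other, so its letters are shown for the members in which a motif search matched it. The GENCODE M21 transcripts (GRCm38) were searched on the transcript strand for the motif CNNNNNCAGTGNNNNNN, with all 5 bases before the CAGTGN loop paired with the 5 bases after it (G-T pairs allowed). The matches are printed 5′ to 3′ over 27 bases, with the 6 bases of the loop in capitals. In Fth1 the match lay in the 5′ UTR at chr19:9982733-9982759 (plus strand), in Ftl1 in the 5′ UTR at chr7:45459780-45459806 (minus strand), and in Slc40a1 in the 5′ UTR at chr1:45925466-45925492 (minus strand). Tfrc held 4 matches in its 3′ UTR (plus strand), at chr16:32631220-32631246, chr16:32631599-32631625, chr16:32631664-32631690 and chr16:32631711-32631737, listed here in that order.
Fth1 5′ UTR: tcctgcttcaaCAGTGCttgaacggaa
Ftl1 5′ UTR: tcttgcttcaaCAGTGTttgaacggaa
Slc40a1 5′ UTR: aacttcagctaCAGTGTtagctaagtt
Tfrc 3′ UTR, first: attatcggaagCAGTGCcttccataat
Tfrc 3′ UTR, second: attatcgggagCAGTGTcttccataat
Tfrc 3′ UTR, the third: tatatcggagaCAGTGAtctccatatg
Tfrc 3′ UTR, the fourth: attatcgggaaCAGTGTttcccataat

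Such a match was rare: 31 of 20899 genes (0.148%) held one in an annotated 5′ UTR and 129 of 21028 (0.613%) in a 3′ UTR. The other 6 members had no match, which says only that these letters with this pairing were not in their annotated UTRs. It does not say that they lack an IRE. A match is a description of the sequence and not a measurement of binding.

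Between old and young brain, 4 of the 10 genes rose and none fell, where 11.0% of all tested genes differed in either direction, 6.09% being higher and 4.89% lower in old brain. The genes that rose were Fth1, Ftl1, Trf and Cp. In these 4 genes every old library was above every young library, whereas the ages did not overlap in 12.6% of all genes. The median log2 fold change of the 10 genes was 0.067, beside -9.2e-05 over all genes tested, and 5 of the 10 had a positive and 5 a negative value. At an unadjusted p under 0.05, 7 of the 10 differed, against 25.5% of all genes, and 3 of these 7 (Tfrc, Slc40a1 and Aco1) were lower in old brain, against 12.3% of all genes. The DESeq2 Wald test, the test of the study, called 5 of the 10, where it called 11.4% of the 18401 genes to which it gave an adjusted p. The fifth was Tfrc, lower in old brain and just under the threshold (DESeq2 adjusted p = 0.04999). Only Cp passed the fold change threshold of the study, an absolute log2 fold change over 0.58, which 2.50% of all genes passed, 2.13% with a higher level in old brain.

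**Figure D1:**
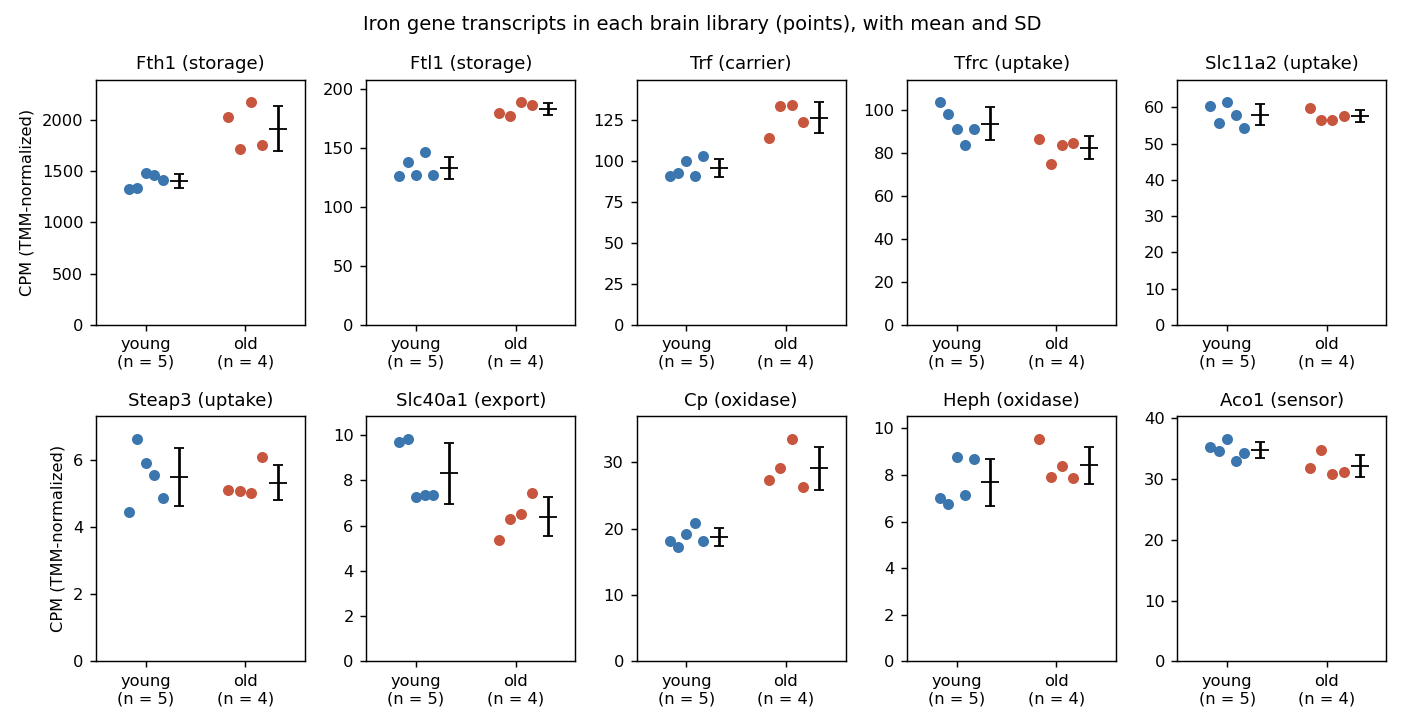
CPM (vertical axes, linear and starting at 0) of each of the 10 genes in 5 young (blue) and 4 old (red) libraries, with 1 point per mouse and the mean and SD beside the points. All 4 old libraries lie above all 5 young libraries for Fth1, Ftl1, Trf and Cp, and the ages overlap for the other 6 genes.

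Ferritin, the storage protein, rose in both of its chains. Fth1 (chromosome 19, 9980598 to 9985098), whose heavy chain oxidises iron as it enters the shell, measured 1329.7, 1341, 1479.6, 1469 and 1419 CPM in young replicates 1 to 5. In old replicates 1, 3, 4 and 5 it measured 2029, 1714, 2178 and 1756 CPM. The lowest old library was thus above the highest young one, and old replicates 1 and 4 were higher than old replicates 3 and 5. The means were 1407 ± 69.9 (SD, n = 5) and 1919 ± 222 (SD, n = 4), and the fitted difference was 36.4% (95% interval 23.4% to 50.7%). Its log2 fold change was 0.45 (SE 0.067, adjusted p = 0.0013 in edgeR).

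Ftl1 (chromosome 7, 45457944 to 45459884), the light chain that favours the formation of the iron core, measured 126, 138, 127, 147 and 127 CPM in the young libraries in order of replicate. The old libraries measured 180, 177, 189 and 186 CPM and were close to each other, with an SD of 5.41 CPM beside 9.23 CPM in the young. The difference was 37.5% (95% interval 28.5% to 47.1%), with a log2 fold change of 0.46 (SE 0.046, adjusted p = 1.5e-05 in edgeR). The difference of Ftl1 was close to that of Fth1. With each mouse left out in turn, the adjusted p stayed between 0.00039 and 0.0062 for Fth1 and between 8.3e-07 and 1.0e-04 for Ftl1.

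The ratio of the chains was computed within each library from TPM, a level per length of transcript, so that it does not depend on how libraries are scaled. Fth1 was 16.4 ± 1.25 times the level of Ftl1 in young brain (SD, n = 5) and 16.2 ± 1.67 times in old brain (SD, n = 4). The size of this ratio rests on the lengths behind the TPM, which were not given. In raw counts it was 9.43 to 11.6 per library. On the log2 scale the ages differed by -0.021, less than the SD within the young (0.11) or the old (0.15). Annotated ferritin pseudogenes, whose sequence resembles the parent genes, took 16 counts or fewer per library each, against at least 21530 for Fth1 and 1849 for Ftl1. Adding their counts to the parent genes left the log2 fold changes at 0.45 and 0.46. An unclassified transcript on the opposite strand, Gm10252, covers 355 of the 1340 exonic bases of Ftl1 and had 7 to 20 counts per library.

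Trf (chromosome 9, 103204001 to 103230444), the carrier that binds iron in plasma and in the fluid of the brain, also rose. The young libraries measured 91.2, 92.8, 99.99, 90.8 and 103 CPM in order of replicate, and the old ones 114, 134, 134 and 124 CPM. Old replicate 1 was the lowest old library and still above the highest young one. The fitted difference was 32.5% (95% interval 22.7% to 43.1%), with a log2 fold change of 0.41 (SE 0.052, adjusted p = 0.00015 in edgeR). Without young replicate 4 the log2 fold change was 0.39 (adjusted p = 0.00030). The predicted gene Gm20425 shares 2108 of the 3320 exonic bases of Trf on one strand and held 0 to 2 counts per library, and whether reads of the shared bases were lost to both genes was not tested. Of 10 oligodendrocyte markers, Mbp and Mobp rose, Mog fell and 7 did not pass the test, where 11.0% of all genes differed. Their summed level was 6474 to 7777 CPM in young and 7165 to 8769 CPM in old libraries, and their part in the difference of Trf was not tested. Of 10 choroid plexus markers only Kcne2 differed, with a lower level in old brain (log2 fold change -0.74), and the summed levels overlapped, at 542 to 736 CPM in young and 456 to 766 CPM in old libraries.

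Cp (chromosome 3, 19957054 to 20009145), the ceruloplasmin ferroxidase, had the largest difference of the 10 genes. It measured 18.2, 17.3, 19.2, 20.9 and 18.2 CPM in the young libraries and 27.3, 29.2, 33.5 and 26.2 CPM in the old ones. The lowest old library was above the highest young one, which was young replicate 4. The difference was 54.9% (95% interval 38.7% to 73.1%), with a log2 fold change of 0.63 (SE 0.076, adjusted p = 6.2e-05 in edgeR), and 0.68 without young replicate 4 (adjusted p = 2.5e-05). Without old replicate 4, the highest library, it was 0.55 (adjusted p = 0.00018), below the fold change threshold of the study. The gene Hps3 overlaps 108 of the 9566 exonic bases of Cp on the opposite strand, and its own log2 fold change was 0.037 (adjusted p = 0.79). None of 10 astrocyte markers passed edgeR's test (4 at an unadjusted p under 0.05), and their summed level was 4863 to 5205 CPM in young and 4910 to 5206 CPM in old libraries. The reactive astrocyte markers moved with age, with 4 of 8 higher (Vim, C4b, Cd44 and Osmr), where 6.09% of all genes were higher. Their summed level did not overlap between the ages, and their part in the difference of Cp was not tested.

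Heph, the membrane-bound relative of Cp, did not pass the test. It measured 6.75 to 8.80 CPM in young and 7.87 to 9.56 CPM in old libraries, and 1 old library was above all young ones. Its difference was 10.5%, with a 95% interval from -5.7% to 29.4% (adjusted p = 0.44 in edgeR), an interval that leaves out a difference as large as that of Cp.

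Slc40a1 (chromosome 1, 45908068 to 45926523), the ferroportin exporter, had its largest values in young brain. The young libraries measured 9.72, 9.85, 7.28, 7.34 and 7.35 CPM and the old ones 5.37, 6.28, 6.51 and 7.45 CPM. Young replicates 1 and 2 were the highest, and 3 of 4 old libraries were below every young one, while old replicate 5 was above the other 3 young mice. The log2 fold change was -0.38 (SE 0.13, 95% interval -0.65 to -0.11) with an unadjusted p of 0.0084 and an adjusted p of 0.064 in edgeR. The gene had 89 to 186 counts per library. Without young replicate 4 the adjusted p was 0.047 and without old replicate 5 it was 0.048, at log2 fold changes of -0.43 and -0.46. Leaving out any 1 of the other 7 mice kept it above 0.05, up to 0.19 without old replicate 1 (log2 fold change -0.30).

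**Figure D2:**
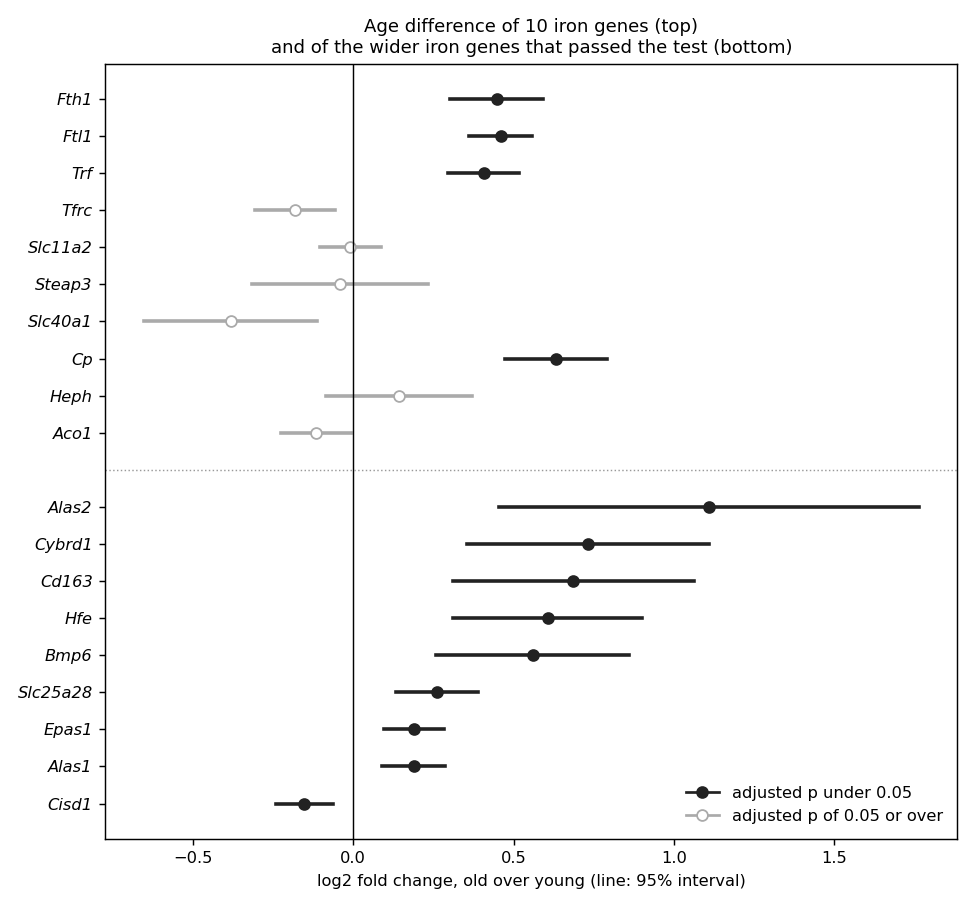
Log2 fold change of old over young brain (horizontal axis) with its 95% interval, for the 10 genes above the dotted line and for 9 of the wider iron genes with an adjusted p under 0.05 below it. Filled points have an adjusted p under 0.05, and among the 10 genes at the top these are Fth1, Ftl1, Trf and Cp, between 0.41 and 0.63.

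Of the uptake genes, Tfrc (chromosome 16, 32608920 to 32632794), the transferrin receptor, was lower in most old libraries. It measured 104, 98.5, 91.1, 83.7 and 91.5 CPM in the young mice and 86.7, 74.9, 83.8 and 84.9 CPM in the old ones. All 4 old libraries lay below the young median, but young replicate 4 lay among them. The log2 fold change was -0.18 (SE 0.059, 95% interval -0.31 to -0.055) with an unadjusted p of 0.0079 and an adjusted p of 0.062 in edgeR. Without young replicate 4 it was -0.22 and passed the test (adjusted p = 0.012), when 11.2% of all genes differed. Left out 1 at a time, the other mice gave adjusted p-values of up to 0.15.

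Slc11a2 (DMT1), the importer of ferrous iron, differed by less than the spread between mice. It measured 54.4 to 61.5 CPM in young and 56.4 to 59.9 CPM in old libraries, all within the young range. Its difference was -0.61% with a 95% interval of -7.0% to 6.2% (adjusted p = 0.93 in edgeR), so a difference of the size seen in ferritin lies outside it. Steap3, the endosomal reductase, measured 4.44 to 6.64 CPM in young and 5.03 to 6.10 CPM in old libraries, and its difference of -2.7% had an interval of -19.6% to 17.6% (adjusted p = 0.88).

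Aco1 (chromosome 4, 40143081 to 40198338) encodes IRP1, which acts as a cytosolic aconitase when it holds an iron-sulfur cluster and as the IRE-binding protein when it does not. The young libraries measured 32.9 to 36.6 CPM, and the old ones 31.8, 34.7, 30.7 and 31.2 CPM. In 3 of 4 old mice the level was below every young one, and old replicate 3 lay within the young range. The log2 fold change of -0.12 (SE 0.052) had an unadjusted p of 0.041 and an adjusted p of 0.17 in edgeR, and no mouse left out brought it past the threshold. Ireb2, which encodes the second IRE-binding protein IRP2, differed by -0.038 on the log2 scale (adjusted p = 0.55).

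The genes differed widely in level. By the median TPM over the 9 libraries, the order was Fth1 (4176), Ftl1 (271), Trf (82.7), Tfrc (33.4), Slc11a2 (22.03), Aco1 (17.1), Cp (6.26), Heph (2.49), Steap3 (2.12) and Slc40a1 (1.83). Fth1 was among the 12 most abundant genes of every library on this scale, and Ftl1 ranked between 192 and 337. From Fth1 down to Heph, each gene was above the next in 9 of 9 libraries. The neighbours at the bottom did not keep this order, since Heph was above Steap3 in 6 and Steap3 above Slc40a1 in 8 of 9 libraries. Of the neighbours that kept it, Slc11a2 and Aco1 were the closest, at a ratio of 1.12 to 1.33 within a library.

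**Figure D3:**
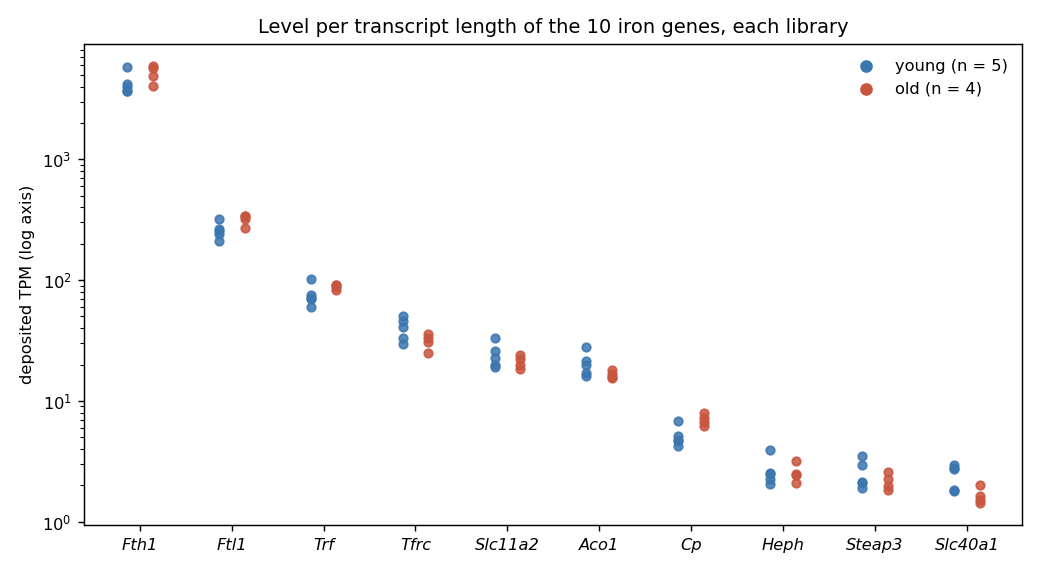
Deposited TPM (vertical axis, log scale) of the 10 genes in order of their median, with 1 point per library for 5 young (blue) and 4 old (red) mice. Fth1 lies between 3673 and 5930.1 TPM, and Heph, Steap3 and Slc40a1 overlap between 1.43 and 3.91 TPM.

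The test used counts, and on the TPM scale 1 gene took a large and uneven share. The noncoding RNA gene Gm23935 held 8.68% to 39.5% of the TPM of a library. The lowest share was in young replicate 3, which had the highest young TPM of Fth1, Ftl1 and Trf. On log2(TPM + 1) the median of all genes lay at -0.14 between old and young brain. On that scale limma called 594 genes in all and none of the 10 (3 at an unadjusted p under 0.05), with log2 fold changes of 0.28 for Fth1, 0.30 for Ftl1, 0.24 for Trf and 0.40 for Cp. Relative to the median of all genes, these were 0.42, 0.44, 0.38 and 0.54. After the TPM were rescaled by median-of-ratios size factors, a step chosen after seeing the data, limma called Fth1 (0.44, adjusted p = 0.014), Ftl1 (0.46, 0.00082), Trf (0.40, 0.0030) and Cp (0.54, 0.0041) and none of the other 6.

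**Figure D4:**
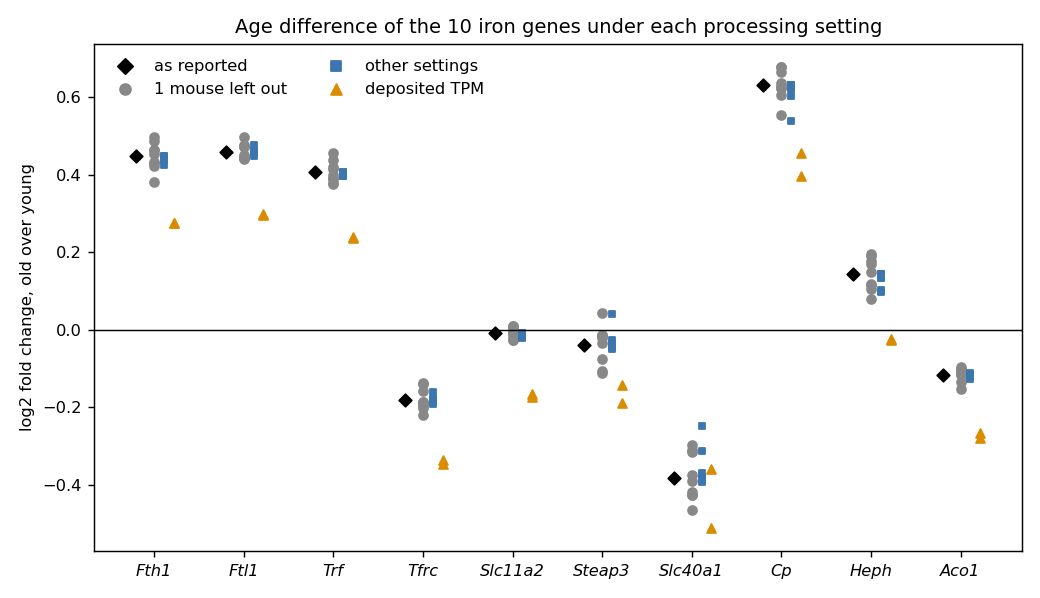
Log2 fold change of old over young brain (vertical axis) of the 10 genes as reported (black diamonds), with 1 mouse left out (grey circles), under other settings (blue squares) and on the deposited TPM (orange triangles). Fth1, Ftl1, Trf and Cp are above 0 in all settings, from 0.24 to 0.68, and the TPM values lie below the others for most genes.

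Further iron genes were described from 7 lists of 85 genes, of which 78 were tested. Of these, 8 rose and 2 fell, or 12.8%, close to the 11.0% of all genes. Their median log2 fold change was -0.0066. The 7 genes that were not tested for low counts were Timd2, Ltf, Ftmt, Hephl1, Hpx and the hepcidin genes Hamp (0 to 3 counts per library) and Hamp2 (0 to 6 counts). Ltf had 236 counts in old replicate 4 and 1 to 7 in every other library.

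Among 16 tested genes of uptake and trafficking, 2 rose and 14 did not pass the test. Hfe, which modulates the transferrin receptor and hepcidin, went from 4.24 ± 0.83 CPM in young to 6.39 ± 0.60 CPM in old brain, with no overlap of the ages (log2 fold change 0.61, edgeR adjusted p = 0.0094). Cybrd1, a ferric reductase, went from 2.66 ± 0.69 to 4.45 ± 0.60 CPM (log2 fold change 0.73, adjusted p = 0.014). Only old replicate 1 came near the young libraries in Cybrd1, at 3.56 CPM beside a highest young value of 3.53 CPM. Lcn2, a carrier of iron-binding siderophores that is also a reactive astrocyte marker, measured 0.26 to 3.14 CPM in young and 1.29 to 16.7 CPM in old libraries (adjusted p = 0.091). Its highest young value was in replicate 4, without which the adjusted p was 0.046.

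None of the 3 tested genes of ferritin turnover and iron delivery passed edgeR's test, and 0 did at an unadjusted p under 0.05. Ncoa4, the receptor that brings ferritin to the lysosome, measured 43.5 ± 2.04 CPM in young and 42.4 ± 1.0 CPM in old brain (adjusted p = 0.69). For the chaperones Pcbp1 and Pcbp2, which load iron into ferritin, the log2 fold changes were -0.025 and 0.051. Among 4 tested genes of export and the hepcidin axis, 1 rose: Bmp6, a signal for hepcidin in liver, went from 10.9 ± 1.94 to 16.1 ± 2.76 CPM (log2 fold change 0.56, adjusted p = 0.021). The ages overlapped in Bmp6, and its adjusted p reached 0.050 or more when any of 7 of the 9 mice was left out, up to 0.062. Among 3 sensing genes, 1 rose, the hypoxia-inducible factor gene Epas1, from 171 ± 9.08 to 194 ± 8.98 CPM (log2 fold change 0.19, adjusted p = 0.010). Fbxl5, which targets IRP2 for degradation, had no overlap of the ages but an adjusted p of 0.11, at a log2 fold change of 0.096.

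Of 20 tested heme genes, 3 rose and 17 did not pass the test. Cd163, the macrophage receptor for hemoglobin bound to haptoglobin, went from 2.71 ± 0.52 to 4.33 ± 0.995 CPM (log2 fold change 0.69, edgeR adjusted p = 0.019). Alas1, the first enzyme of heme synthesis in most cells, went from 43.4 ± 2.05 to 49.6 ± 1.26 CPM (log2 fold change 0.19, adjusted p = 0.014). Alas2, its counterpart in red blood cell precursors, measured 3.44 to 6.30 CPM in young and 9.56, 7.12, 16.5 and 7.63 CPM in old libraries (log2 fold change 1.11, adjusted p = 0.041). It is also a red blood cell marker, and the 6 tested markers of these cells summed to 89.1 to 116 CPM in young and 128 to 427 CPM in old libraries, highest in old replicate 4, where Alas2, one of the 6, was highest too. The call of Alas2 was lost without young replicate 1, 2, 3 or 4 or without old replicate 1, and that of Cd163 without young replicate 1 or old replicate 1, with adjusted p-values of up to 0.094 and 0.074. Hmox1, the inducible enzyme that breaks down heme, was chosen after its values were seen. It did not pass the test over all mice (log2 fold change 0.54, adjusted p = 0.11), and young replicate 4 measured 6.62 CPM where the other young libraries measured 3.09 to 3.92 and the old ones 5.17 to 7.17. Without that mouse the log2 fold change was 0.78 (adjusted p = 0.0022).

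In the list of mitochondrial iron and iron-sulfur cluster genes, 19 of 23 had a negative log2 fold change and the median was -0.071, but only 2 fell and 1 rose. Slc25a28 (mitoferrin-2), which carries iron into mitochondria, rose from 30.9 ± 2.60 to 36.9 ± 1.49 CPM (log2 fold change 0.26, edgeR adjusted p = 0.010). Cisd1 (mitoNEET), an outer-membrane protein with an iron-sulfur cluster, fell from 53.6 ± 1.31 to 48.2 ± 1.55 CPM (log2 fold change -0.15, adjusted p = 0.026). The ages did not overlap in Slc25a28 or Cisd1, but the call of Cisd1 was lost without any 1 of 5 mice, with adjusted p-values of up to 0.081. None of 9 cytosolic iron-sulfur cluster genes passed edgeR's test, and 0 did at an unadjusted p under 0.05. Of the wider genes that rose or fell, Bmp6, Alas1 and Alas2 are among those that overlap an exon of a gene on the opposite strand.

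Alas2 was among the further genes that the IRE search matched, and was not the only one. The match in Alas2 is shown, with the loop in capitals, because the transcript of Alas2 differed with age. It lay in the 5′ UTR at chrX:150547459-150547485 (plus strand).
Alas2 5′ UTR: tggttcgtcctCAGTGCagggcaacag

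Markers of other cells moved with age beside the genes that rose. Of 10 endothelial markers 5 rose (Flt1, Pecam1, Cdh5, Ly6c1 and Slc2a1), and their sum of 405 to 429 CPM in young libraries did not overlap with 483 to 588 CPM in old ones. Of 10 homeostatic microglia markers 1 rose (Tmem119), with overlapping sums of 232 to 319 CPM in young and 308 to 367 CPM in old libraries. Of 10 activated microglia markers 3 rose (Gpnmb, Axl and Cd68). Of 6 oligodendrocyte precursor markers Sox10 rose and Gpr17 fell, with overlapping sums. Of 10 neuron markers 2 fell (Stmn2 and Tubb3), with overlapping sums of 6406 to 6847 CPM in young and 6239.8 to 6790.04 CPM in old libraries. The red blood cell sums given above did not overlap between the ages. They were 266, 128, 427 and 170 CPM in old replicates 1, 3, 4 and 5. Fth1 followed the same order among the old mice, but not among the young ones. The part of these cells, red blood cells included, in the differences of ferritin, Trf and Cp was not tested.

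The genes most like each member that rose were searched among 11213 genes of at least moderate level, by Pearson's r of log2 CPM over the 9 libraries after the mean of each age was taken out. This describes how single mice deviated from their age group, and the libraries share depth and scaling. The highest of 11213 values over only 9 libraries are large by selection alone. How large they would be between unrelated genes was not tested. For Fth1 the closest were Mast1 (0.98), the astrocyte gap junction gene Gjb6 (0.97) and Wnt3 (0.96), and for Ftl1 they were Pabpc1 (0.93), Ap2b1 (0.92) and Edem2 (0.92). For Trf they were the glutamate transporter gene Slc17a6 (0.99), Rassf5 (0.98) and the myelin gene Cnp (0.98). For Cp they were Alg13 (0.97), Creg1 (0.96) and the lysosomal membrane gene Lamp2 (0.95). Between Fth1 and Ftl1 themselves, r was 0.24.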

How the data were processed

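RNA-seq of whole brain was analysed for 5 young and 4 old mice, grouped by the age in the sample labels. After trimming, the authors aligned reads to GRCm38 with STAR and assigned reads with a single match to exons with featureCounts. Whole, unscaled read numbers per gene make up the deposited counts. A second deposited table holds the signal left after the authors scaled the counts by 1 size factor per library, for 17994 genes. The deposited TPM were scaled by the authors to gene length and to 1 sum per library, with lengths not given in the sources used here. A single per-sample column in each table (1 of them), named as a further old replicate, matched none of the listed samples and was not used. The study gives 5 mice per age for its transcriptome. Whether these libraries were counted by strand was not given in the sources used here, so overlaps on the opposite strand are stated. Beside those above, Gm5475 covers 402 of the 6354 exonic bases of Slc11a2 on that strand (5 to 16 counts per library). Hsf3 covers 29 of the 7662 exonic bases of Heph there (1 to 3 counts). On the strand of Ftl1, the miRNA gene Gm22133 covers 109 of its bases and had 0 counts.

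Low genes were removed with filterByExpr (edgeR), with 10 as the minimum count and 15 as the minimum total. Libraries were scaled by TMM and the ages compared with edgeR's quasi-likelihood test (robust fit), with Benjamini-Hochberg adjustment over 18492 genes. The test was checked on simulated counts. Standard errors came from the log2 fold change and the F statistic. The tools were edgeR 4.0.16, DESeq2 1.42.0 and limma 3.58.1 in R 4.3.3. Symbols and positions came from GENCODE M21, where 259 identifiers had none. Libraries of one age differed by more than sampling noise (chi-square divided by its degrees of freedom, 4.05 or more). This statistic cannot tell separate mice from repeated preparations of 1 sample. The labels give a replicate number per sample and the methods of the study name individual brains, so each library was taken as a replicate.

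The members and lists were chosen with earlier results of these data known. Genes named are the 10 members, each listed iron gene with an adjusted p under 0.05, the 3 genes most like each member that rose (mean log2 CPM of at least 3) and cell type markers (1 gene under this rule is not reported here), while Hmox1, Ireb2, Ncoa4, Pcbp1, Pcbp2 and Fbxl5 were picked with their values in view. Alternatives were other size factors, DESeq2, limma on TPM and on normalized counts, other filters, a replicate block, ferritin pseudogenes added, and each mouse left out. A fit without robust estimation and rescaled TPM were added after seeing the data.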

Additional observations from a re-analysis of the deposited data

Results flagged for a closer look

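In 3 cases 1 old mouse lay far from the other 3 of its age. Its gap to its nearest neighbour on log2 CPM, divided by the range of the group, was above Dixon's 95% critical value for 4 samples. Among the 42 combinations of gene and age looked at, chance gives about 2.1. Steap3 in old replicate 5 measured 6.10 CPM, against 5.03 to 5.10 CPM in the other old mice (ratio 0.933). Cybrd1 in old replicate 1 measured 3.56 CPM, against 4.70 to 4.80 CPM (0.929), and was still above all young libraries. Bmp6 in old replicate 1 measured 12 CPM, against 17 to 18 CPM (0.859), which is within the young range.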

How the results depend on the processing

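Fth1, Ftl1, Trf and Cp kept their direction and their call under every alternative on counts and normalized counts and with every mouse left out. On log2(TPM + 1) and on log2(TPM + 0.1) limma called 0 and 0 of the 10 genes and 3 and 3 of the wider iron genes, beside 4 and 10 as reported. The medians of all genes on these scales were -0.14 and -0.16, and after rescaling of the TPM the calls were 4 and 10. With each mouse left out, 4 to 6 of the 10 genes and 7 to 10 of the wider genes were called, and the log2 difference in the ratio of Fth1 to Ftl1 ranged from -0.069 to 0.028. Upper quartile size factors and the DESeq2 Wald test each called 5 of the 10 genes and testing every gene with a count called 6, the additions being Tfrc in all of them and Slc40a1 in the last. Over the single genes named, 335 values kept direction and side of the threshold, 53 lost and 7 gained the call in the same direction, and 7 changed sign. Signs turned only in genes that did not pass the test: Heph on TPM (-0.023 and -0.027), Steap3 without young replicate 2 (0.043, where leaving out single mice gave -0.11 to 0.043) and with the replicate block (0.042), and Slc11a2 without young replicate 1 (0.0093), young replicate 3 (0.0087) or old replicate 4 (0.0017), over a range of -0.027 to 0.0093. Apart from TPM scaling, where the scale itself moved, the cause was not tested. Same-numbered mice did not deviate together (r of 0.17, -0.12, 0.088 and -0.024 for numbers 1, 3, 4 and 5), so the numbers do not pair the samples. The replicate block called 4 of the 10 genes and 11 of the wider ones, without Cisd1 (adjusted p = 0.081).

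Slc40a1, Heph and Steap3 had 186 counts or fewer per library and the widest intervals of the 10 genes, and the part of depth in this was not tested. Transcript levels do not measure ferritin or transferrin protein.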
